A study of Cavia porcellus with 13 samples.

Results

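Among the 26855 genes of a guinea pig skin expression table, 151 small RNA genes were followed: small nucleolar RNAs (snoRNAs, named SNORD or SNORA), small Cajal body RNAs (named SCARNA) and vault RNAs (named Vault). They were chosen by name and by level, as every gene with such a name that reached at least 1 TPM in at least 2 of the 13 libraries. TPM is a gene's length-scaled share of a library. Of 474 genes with these names, 232 were listed at 0 in every library and 91 more were above 0 but missed that level, so the members are the measurable genes and not the whole families. The members comprised 87 of 153 SNORD genes, 42 of 154 SNORA genes, 8 of 10 SCARNA genes and 14 of 157 genes named Vault.

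The study exposed guinea pigs to ticks and took skin biopsies 4 days after attachment. In the first experiment, whose library titles begin with CK1, bitten skin came from 3 saliva immune samples and 3 samples at a first exposure, and unbitten skin from naive replicates 1 and 2. In the second, EF19-5, bitten skin came from 2 samples labelled 3 bites and 2 labelled 2 bites, and unbitten skin from naive replicate 3. The labels name no strain, age, sex or tick species, and give neither the treatment of the saliva immune animals nor the number of animals sampled. Since libraries of a group may share an animal, a p-value here speaks of the spread between samples, part of which can be technical.

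Box C/D snoRNAs (SNORD) guide ribose methylation and box H/ACA snoRNAs (SNORA) guide pseudouridylation of ribosomal and spliceosomal RNA, and Cajal body RNAs do the same for spliceosomal RNAs. Most vertebrate snoRNAs are cut out of the introns of host genes, many of which encode ribosomal proteins or are non-coding transcripts kept mainly for their introns. Vault RNAs are short polymerase III transcripts, part of which sits in the vault particle beside the proteins MVP, PARP4 and TEP1.

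All 8 keratinocyte markers found in the table were above 0 in every library, KRT14 at 4287 TPM or more and KRT5 at 1733 TPM or more. The 15 skeletal muscle markers found were also above 0 in every library. Summed, these markers alone took 1.82% to 7.54% of a library's TPM in saliva immune skin and 3.45% to 5.23% at first exposure. They took 7.42% and 13.01% in naive replicates 1 and 2. In EF19-5 they took 0.572% and 1.15% in 3 bites skin, 0.475% and 0.655% in 2 bites skin and 1.88% in naive replicate 3. In such bulk samples fewer cells of a type and less RNA per cell cannot be told apart. The number of genes at 1 TPM or more ran between 13270 in naive replicate 2 and 14391 in saliva immune replicate 3.

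The rule's level requirement acts on the second-highest library. Just inside it lay Vault ENSCPOG00000029677, whose second-highest value was 1.03 TPM, and SNORD53B (ENSCPOG00000034143) at 1.05 TPM. Just outside lay SNORD38B ENSCPOG00000016324 at 0.992 TPM, a copy other than the abundant gene of that name described below, and SNORA71 ENSCPOG00000017769 at 0.947 TPM. Genes that share a name were kept apart by identifier. The 151 members carried 117 names, and 12 names were shared by 46 members: Vault by 14, SNORA71 by 7, SNORD58 by 4, and SNORA62, SNORA63 and SNORD18 by 3 each. How reads were divided between near-identical copies, or between a snoRNA and the intron around it, is not given in the sources used here, nor is the use of strand, so values of single copies are uncertain.

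Box C/D snoRNAs held most of the measured signal. SNORD members made up 83.3% of the members' TPM over all libraries, SNORA members 13.9%, Vault members 2.00% and SCARNA members 0.813%. The median of the members' mean TPM was 4.90 for SNORD, 1.65 for SNORA, 0.894 for Vault and 0.784 for SCARNA. Of the 32 members with a mean of at least 10 TPM, 31 were SNORD genes, and SNORA70, which guides pseudouridylation of 18S ribosomal RNA in human, was the other with a mean of 17.0 TPM. At the low end 67 members averaged under 2 TPM, and 53 reached 1 TPM in every library.

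The summed level of the 151 members differed by up to 2.49-fold between libraries of the same group. It was 1118, 687 and 1708 TPM in saliva immune skin, 523, 1048 and 826 TPM at first exposure, and 614 and 393 TPM in naive replicates 1 and 2. The first 2 of these groups overlapped, as did first exposure and naive skin, while each saliva immune library lay above both CK1 naive libraries. In EF19-5 the sum was 1006 and 1676 TPM in 3 bites skin, 565 and 723 TPM in 2 bites skin, and 769 TPM in naive replicate 3. Here both 3 bites libraries lay above naive replicate 3 and both 2 bites libraries below it.

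As means the sums were 1171 ± 513 TPM in saliva immune skin (SD, n = 3), 799 ± 263 TPM at first exposure (SD, n = 3) and 504 ± 156 TPM in CK1 naive skin (SD, n = 2). They were 1341 ± 474 TPM in 3 bites skin and 644 ± 112 TPM in 2 bites skin (SD, n = 2 each). Dividing TPM by median-of-ratios size factors narrowed the range over the libraries from 4.34-fold to 2.90-fold and kept naive replicate 2 lowest, at 499.5 TPM on that scale, but made 3 bites replicate 2 the highest, at 1450 TPM, ahead of saliva immune replicate 3 at 1441 TPM. Within CK1 the library with the highest sum, saliva immune replicate 3, had the lowest share of skeletal muscle markers. Naive replicate 2, with the lowest sum, had the highest share. In EF19-5 the 2 bites libraries had as small a share of muscle markers as the 3 bites libraries. Of all 13 libraries, naive replicate 2 also had the lowest summed markers of keratinocytes, adipocytes, macrophages and T cells. Fibroblast markers were lowest in first exposure replicate 3. The part of muscle or of other cells in the sums was not tested. No p is given for a sum over chosen members.

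**Figure D1:**
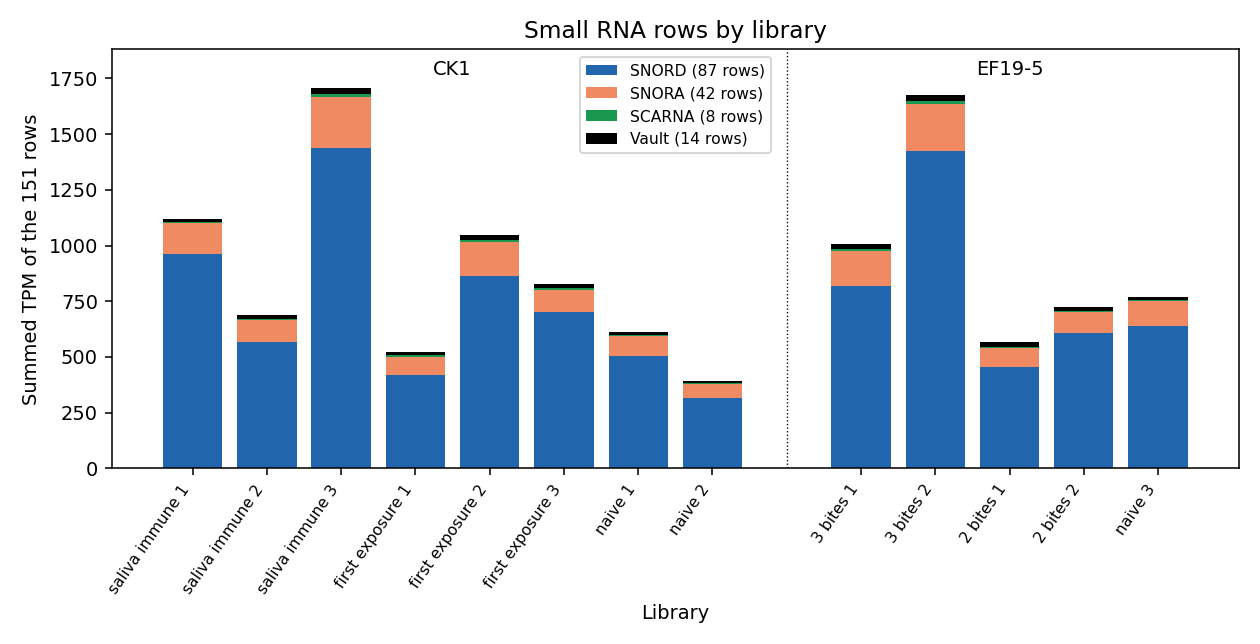
Summed TPM (vertical axis, from 0) of the 151 small RNA members in each of the 13 libraries, stacked by class and split by experiment at the dotted line. The sum runs between 393 TPM in naive replicate 2 and 1708 TPM in saliva immune replicate 3, and SNORD genes make up most of every bar.

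The most abundant members were box C/D snoRNAs that guide methylation of ribosomal RNA. SNORD24 (ENSCPOG00000017136), whose human counterpart targets 28S ribosomal RNA, had the highest mean, 44.7 TPM. It stood at 45.9, 25.5 and 89.6 TPM in saliva immune skin, 27.4, 51.5 and 38.8 TPM at first exposure, and 29.4 and 11.6 TPM in CK1 naive skin. In EF19-5 it stood at 55.7 and 95.6 TPM in 3 bites skin, 34.1 and 32.4 TPM in 2 bites skin, and 43.7 TPM in naive replicate 3. Saliva immune replicate 3 and 3 bites replicate 2 were the 2 highest libraries and naive replicate 2 the lowest, the same 3 libraries that were at the ends for the members' sum.

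The next by mean TPM were SNORD88C at 36.9, SNORD96 at 30.1, SNORD38B at 30.1 and SNORD4B at 28.1. SNORD88A at 27.2, SNORD12 at 27.1, SNORD79 at 26.8, SNORD88B at 22.7 and SNORD50B at 17.9 completed the 10 highest. In human, SNORD88, SNORD38B, SNORD79 and SNORD50B guide methylation of 28S, SNORD96 of 5.8S and SNORD4B of 18S ribosomal RNA. The 3 SNORD88 genes and SNORD96, SNORD4B and SNORD12 spanned narrower ranges than SNORD79, which ran between 7.60 TPM in 2 bites replicate 2 and 61.9 TPM in 3 bites replicate 2. SNORD38B (ENSCPOG00000031856) ran between 7.13 TPM in naive replicate 2 and 75.0 TPM in 3 bites replicate 2.

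The highest libraries were shared by most members, the lowest by fewer. Saliva immune replicate 3 was the highest library for 54 of the 151 members and 3 bites replicate 2 for 48, together 102. Among the 32 members with a mean of 10 TPM or more, these libraries were highest for 31 and naive replicate 2 was lowest for 19. Over all members, 111 had their lowest value in 1 library alone, which was naive replicate 2 for 42 and no other library for more than 14. Against the mean of the other saliva immune libraries, replicate 3 was higher in 125 of 151 members and 75.8% of all 14979 genes tested. The median log2 difference was 0.82 for the members and 0.36 over all genes tested. In 3 bites skin, replicate 2 was higher than replicate 1 in 115 members and in 59.1% of all genes tested. The members' median was 0.57 above it, against 0.07 over all genes tested. These are descriptions of libraries of 1 group, and what sets them apart was not tested.

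**Figure D2:**
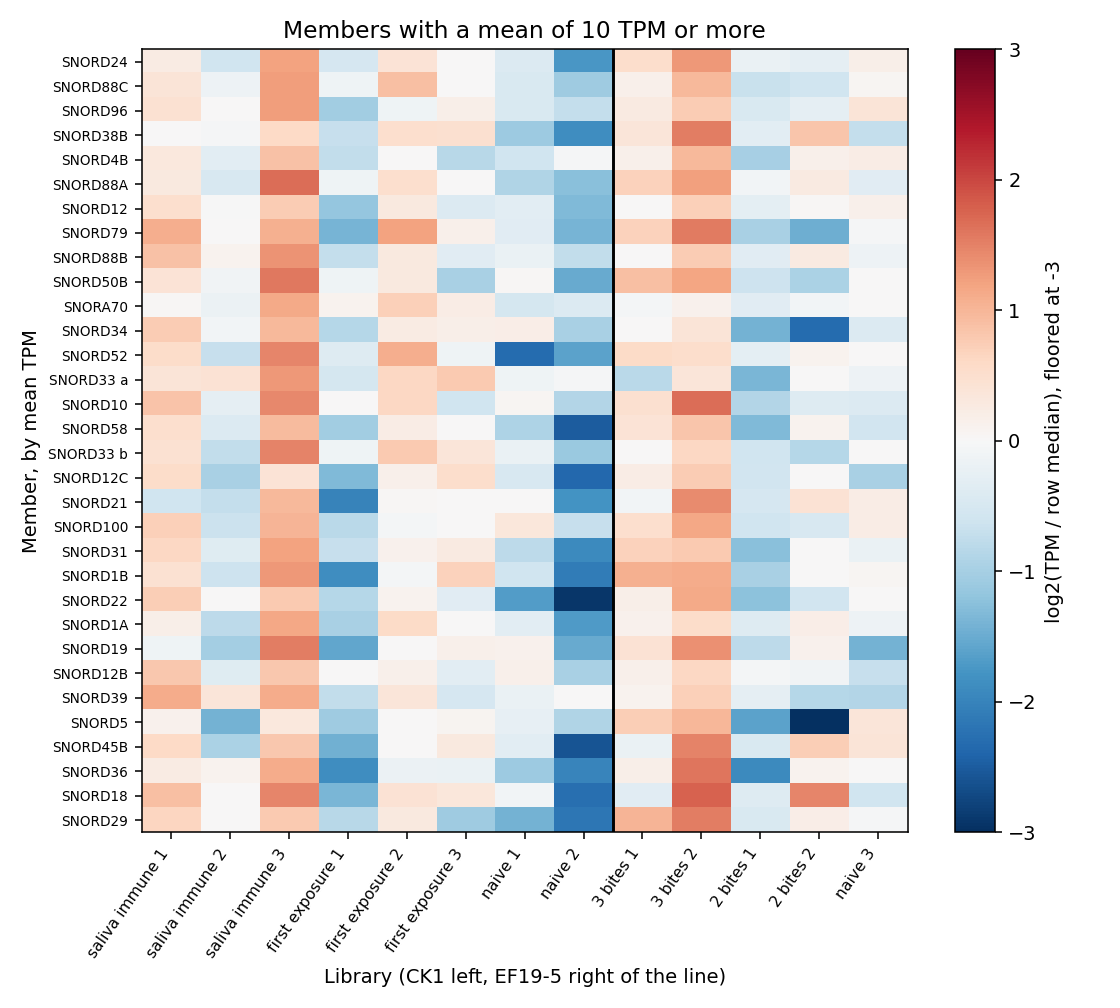
Level of the 32 members with a mean of 10 TPM or more (rows, ordered by mean) in the 13 libraries (columns), as log2 of TPM over the member's own median, shown no lower than -3. Red columns mark saliva immune replicate 3 and 3 bites replicate 2, highest for 31 of the 32, and blue marks naive replicate 2, lowest for 19.

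Replicates differed more in these genes than in most others. On the log2(TPM + 1) scale the median SD within groups was 0.612 for the members and 0.297 for all genes tested. It was 0.328 for the 8141 other genes whose mean level lay between the 5th and 95th percentile of the members. Members, like the other genes tested, were included only because they reached the level of the rule, and no test of this difference was made.

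Group differences below come from limma on log2(TPM + 1), fitted over all 14979 genes that met the same level requirement, with Benjamini-Hochberg adjustment over all of them. A call is an adjusted p under 0.05. On this scale the change of low genes is understated. Comparisons against the same naive libraries share those libraries.

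At first exposure against naive skin of CK1, 1 member was called, against 0.0334% of all genes tested. This was the vault RNA gene ENSCPOG00000036641, which rose. It was at 5.50, 6.17 and 5.79 TPM at first exposure, against 0.551 and 0.442 TPM in naive replicates 1 and 2, and saliva immune skin lay between them at 1.65, 3.06 and 4.56 TPM. Its log2 difference at first exposure was 2.19 (SE 0.276) with a limma adjusted p of 0.0455. The unbitten library of the other experiment, naive replicate 3, had 5.40 TPM, as much as bitten skin there, which had 6.74 and 5.93 TPM in 3 bites and 4.79 and 5.59 TPM in 2 bites samples.

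The call at first exposure held in 8 of 19 alternatives, with an adjusted p between 0.0119 and 0.479. It was lost when any first exposure library, naive replicate 1 or 2, saliva immune replicate 2 or either 2 bites library was left out. With all 3 naive libraries as 1 group the adjusted p was 0.365.

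No further member was called. Over all 151 members, the called gene included, log2 differences were above 0 for 112, 74.2%, and below 0 for 39. Of all genes tested 64.5% were above 0. The median was 0.33 for the members and 0.14 over all genes tested. An unadjusted p under 0.05 was reached by 26 members, 17.2%, against 13.6% of all genes. All first exposure libraries lay above both naive ones in 33 members, 21.9%, which was also the 21.9% of all genes, and below both in 5, against 14.1% of all genes. Of the 50 other small non-coding RNA genes tested, most of them microRNA genes and the rest such as spliceosomal RNAs and 7SK, 39 were above 0, with a median of 0.27, and limma called 0 of them, with 8 at an unadjusted p under 0.05. SNORD45C (ENSCPOG00000016585) had the widest such gap upward, with 3.06, 9.62 and 9.02 TPM at first exposure, against 1.46 and 0.0799 TPM in naive skin, a log2 difference of 2.22 (SE 0.650, limma adjusted p = 0.228). Of the few that were lower, SNORD71 (ENSCPOG00000018929) had 0, 0.270 and 0 TPM at first exposure, against 0.957 and 2.62 TPM in naive skin, a log2 difference of -1.30 (SE 0.331, limma adjusted p = 0.203). The other 4 were Vault ENSCPOG00000019879 and ENSCPOG00000035930 and, named after their values were seen, SNORD113-6 and SNORD15.

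Saliva immune skin against naive skin gave the widest shift of the members within CK1, with no call. By limma 0 members were called, against 0.00668% of all genes, while 44, 29.1%, had an unadjusted p under 0.05, 43 of them higher, against 11.6% of all genes. The differences were above 0 for 133 members, 88.1%, against 68.1% of all genes, and below 0 for 18. The members' median was 0.80 against 0.14 over all genes. The groups did not overlap in 57 higher members, 37.7%, against 18.5% of all genes, and in 2 lower ones, SNORD71 and Vault ENSCPOG00000032422, against 6.22% of all genes. The other small non-coding RNA genes were above 0 in 41 of the 50 tested, with a median of 0.50. By limma 0 of these 50 were called and 4 had an unadjusted p under 0.05, and their difference from the members was not tested. Because most members were highest in the same 2 libraries, these counts are not of independent genes.

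Most of the members higher at an unadjusted p under 0.05 in this comparison were SNORD genes. Among the 87 SNORD members 80 were above 0 with a median log2 difference of 1.06, and 36 were higher at an unadjusted p under 0.05. The 42 SNORA members had a median of 0.62, with 38 above 0 and 5 higher at an unadjusted p under 0.05. The median was 0.21 for the 14 Vault and 0.11 for the 8 SCARNA members. These medians have the same order as the classes' levels, and this scale understates the change of low genes. A difference between classes was therefore not separated from level. Mean summed TPM was 988 in saliva immune and 409 in CK1 naive skin for SNORD, and 157 and 77.6 for SNORA. It was 7.14 and 4.58 for SCARNA, and the Vault sums are given below. Leaving out naive replicate 2 gave the 151 members a median of 0.57, and leaving out saliva immune replicate 3 together with 3 bites replicate 2, chosen after seeing the data, a median of 0.52.

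The largest log2 difference was that of SNORD22, followed by SNORD45C and SNORD26. SNORD22 and SNORD26 sit in introns of SNHG1, a non-coding host gene, in human. SNORD22 (ENSCPOG00000018604) had 22.2, 13.5 and 23.0 TPM in saliva immune skin, 7.43, 14.3 and 10.5 TPM at first exposure, and 4.16 and 1.78 TPM in naive skin. SNORD26 (ENSCPOG00000017866) had 13.6, 9.74 and 14.7 TPM in saliva immune skin, 6.68, 7.58 and 7.29 TPM at first exposure, and 2.28 and 1.67 TPM in naive skin. In SNORD22 and SNORD26 every saliva immune library lay above both naive ones, as did every first exposure library. Against naive skin, the log2 difference in saliva immune skin was 2.40 for SNORD22 (SE 0.396, limma adjusted p = 0.127) and 2.19 for SNORD26 (SE 0.344, limma adjusted p = 0.107). SNORD45C had 6.65, 2.91 and 15.8 TPM in saliva immune skin, against 1.46 and 0.0799 TPM in naive skin, a log2 difference of 2.29 (SE 0.650, limma adjusted p = 0.290).

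SNORD26, named here because it came closest to a call, passed once either 3 bites library was left out, with adjusted p of 0.0181 without replicate 1 and 0.0180 without replicate 2. SNORD29 (ENSCPOG00000015770), another SNHG1 snoRNA chosen after its values were seen, had 13.6, 8.76 and 15.0 TPM in saliva immune skin, 4.93, 10.7 and 4.21 TPM at first exposure, and 3.28 and 1.95 TPM in naive skin. Its saliva immune difference from naive skin was 1.89 (SE 0.382, limma adjusted p = 0.206). The 7 members with SNHG1 as human host, summed, ran between 13.1 and 132 TPM over the 13 libraries; SNHG1 itself was not analysed here.

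Between the bitten groups of CK1, saliva immune skin was higher than first exposure in 124 members, 82.1%, and lower in 27. Over all genes 54.5% were higher. The members' median was 0.39 against 0.02 over all genes. By limma 0 members were called, against 0% of all genes, and 13 members, 8.61%, had an unadjusted p under 0.05, against 2.34% of all genes. The groups did not overlap in 9 higher members, 5.96%, near the 5.41% of all genes, and in 2 lower ones, against 1.35%. Without saliva immune replicate 3 and 3 bites replicate 2 the members' median was 0.14. SNORD36 (ENSCPOG00000015983), which guides methylation of ribosomal RNA, was higher without overlap, with 11.7, 10.6 and 21.3 TPM in saliva immune skin, against 2.71, 8.77 and 8.62 TPM at first exposure. Its log2 difference was 1.08 (SE 0.553), with no call.

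The members lower without overlap in saliva immune skin were the vault gene ENSCPOG00000036641, whose values are above, and SNORD70 (ENSCPOG00000017983), which guides methylation of 18S ribosomal RNA in human. SNORD70 had 0.619, 0.862 and 0.590 TPM in saliva immune skin, against 3.19, 1.48 and 2.43 TPM at first exposure. Its log2 difference was -0.96 (SE 0.357, limma adjusted p = 1).

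**Figure D3:**
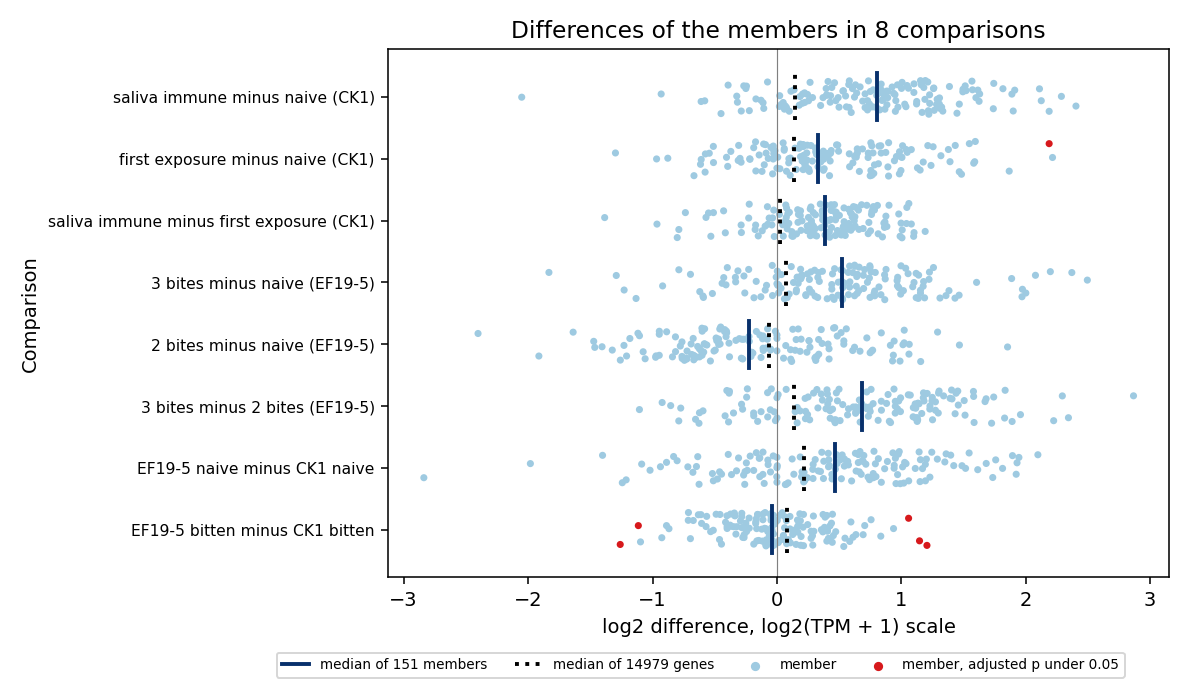
Log2 differences of the 151 members on the log2(TPM + 1) scale (horizontal axis) in 8 comparisons, with each member as a point, red where its limma adjusted p was under 0.05. Solid bars mark the members' median and dotted bars the median of all 14979 genes tested; the members' median is 0.80 in saliva immune against naive skin and -0.22 in 2 bites against naive skin.

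In EF19-5 the bitten groups lay on either side of the unbitten library. In 3 bites skin 121 members, 80.1%, were above and 29 below naive replicate 3, where 60.5% of all genes were above. The members' median log2 difference was 0.53 against 0.08 over all genes. By limma 0 members were called, against 0.00668% of all genes, and 16, 10.6%, had an unadjusted p under 0.05, against 2.34% of all genes. Both 3 bites libraries lay above naive replicate 3 in 88 members, 58.3%, against 41.1% of all genes, and both below it in 15, against 24.2%. The naive group here is 1 library, assumed to vary like the other groups.

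In 2 bites skin 55 members, 36.4%, were above and 93 below naive replicate 3, where 42.2% of all genes were above. The members' median was -0.22 against -0.06 over all genes. By limma 0 members were called, against 0.0134% of all genes, and 6, 3.97%, had an unadjusted p under 0.05, against 5.87% of all genes. Both libraries lay above naive replicate 3 in 40 members and below it in 69, where the share over all genes was 28.6% above and 43.3% below. At these shares the 2 bites difference was near that of all genes.

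Set against each other, 3 bites skin was higher than 2 bites skin in 121 members, 80.1%, and lower in 29. Over all genes 64.8% were higher. The members' median was 0.68 against 0.13 over all genes. By limma 0 members were called, against 0% of all genes, and the smallest adjusted p was 0.331. An unadjusted p under 0.05 was reached by 39 members, 25.8%, of which 38 were higher, against 10.8% of all genes. The groups did not overlap in 77 higher members, 51.0%, against 35.6% of all genes, and in 4 lower ones, against 11.5%. These 4 were SNORA13, Vault ENSCPOG00000032422 and, named after their values were seen, SNORD71 and the SNORA63 copy ENSCPOG00000029183. Without 3 bites replicate 2 and saliva immune replicate 3 the members' median was 0.44.

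SNORD5 (ENSCPOG00000029682), a box C/D snoRNA, had the widest gap between these groups. It had 19.6 and 23.4 TPM in 3 bites skin, 3.86 and 0.939 TPM in 2 bites skin, and 15.2 TPM in naive replicate 3. The 2 bites libraries thus held the 2 lowest of all 13 values. Its log2 difference between 3 bites and 2 bites skin was 2.87 (SE 0.580, limma adjusted p = 0.331), and between 2 bites and naive skin -2.40 (SE 0.710, limma adjusted p = 0.743).

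SNORD42 and a SNORA63 copy gave the same order of groups without a call. SNORD42 (ENSCPOG00000017316) had 3.57 and 14.2 TPM in 3 bites skin, 0.677 and 0.607 TPM in 2 bites skin, and 3.56 TPM in naive replicate 3. SNORA63 (ENSCPOG00000018627), chosen after its values were seen, had 19.8 and 21.6 TPM in 3 bites skin, 4.23 and 2.73 TPM in 2 bites skin, and 10.1 TPM in naive replicate 3. Against 2 bites skin, the log2 difference in 3 bites skin was 2.34 for SNORD42 (SE 0.552) and 2.29 for SNORA63 (SE 0.461), each with a limma adjusted p of 0.331. SNORA68 (ENSCPOG00000018335), which guides pseudouridylation of 28S ribosomal RNA in human, had 3.82 and 10.1 TPM in 3 bites skin, 3.34 and 2.53 TPM in 2 bites skin, and 0.417 TPM in naive replicate 3, so that both bitten groups lay above the unbitten library.

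Most of the member calls came from the comparison between the experiments. Bitten skin of EF19-5 against bitten skin of CK1 gave 5 calls among the 151 members, 3.31%, against 21.2% of all genes. Only 12 members, 7.95%, had an unadjusted p under 0.05, against 36.3% of all genes, and the groups did not overlap in 1 higher and 3 lower members, where the shares over all genes were 9.88% and 8.35%. The median log2 difference of the 151 members was -0.04 against 0.08 over all genes. Of the 50 other small non-coding RNA genes 5 were called higher and 3 lower, 16.0%, with a median of -0.13. In this comparison experiment and exposure history cannot be told apart.

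The small Cajal body RNA SCARNA10 (ENSCPOG00000028780), which in human guides modification of the spliceosomal U5 RNA, was higher in EF19-5. It had 0.851 and 1.61 TPM in 3 bites skin and 1.09 and 1.87 TPM in 2 bites skin, against 0.265, 0 and 0.0532 TPM in saliva immune skin and 0.0390, 0 and 0.379 TPM at first exposure. All 4 bitten EF19-5 libraries lay above all 6 bitten CK1 libraries. The log2 difference was 1.06 (SE 0.198) with a limma adjusted p of 0.00720, and it passed in 17 of 17 alternatives, at an adjusted p of up to 0.0303. SCARNA10 reached 1 TPM in bitten EF19-5 libraries alone, so it entered the test only through the group in which it was higher, and the call is given as a description. Naive replicate 3 of EF19-5 was listed at 0, against 0.179 and 0.608 TPM in the CK1 naive libraries, so the unbitten libraries had the reverse order.

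SNORA2C (ENSCPOG00000029289), an H/ACA snoRNA, was also higher in EF19-5, with 2.32 and 5.01 TPM in 3 bites skin and 0.965 and 1.17 TPM in 2 bites skin, against 0.335, 0 and 1.62 TPM in saliva immune skin and 0.645, 0.158 and 0 TPM at first exposure. SNORD53 (ENSCPOG00000031096) was higher too, with 0.850 and 6.55 TPM in 3 bites skin and 1.64 and 2.35 TPM in 2 bites skin, against 0.506, 0.0991 and 1.09 TPM in saliva immune skin and 0.394, 0.365 and 0.387 TPM at first exposure. In both, the highest value was in 3 bites replicate 2 and saliva immune replicate 3 overlapped the EF19-5 values. The log2 differences were 1.15 for SNORA2C (SE 0.313, limma adjusted p = 0.0291) and 1.21 for SNORD53 (SE 0.366, limma adjusted p = 0.0423), and they passed in 9 and 8 of 17 alternatives. Within CK1, SNORA2C reached 1 TPM in saliva immune replicate 3 alone. It thus met the level requirement only through EF19-5, the experiment in which it was higher, and its call is given as a description.

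SNORD87 and SNORD70 were lower in EF19-5. SNORD87 (ENSCPOG00000017917), which guides methylation of 28S ribosomal RNA in human, had 1.89 and 0.920 TPM in 3 bites skin and 2.39 and 0 TPM in 2 bites skin, against 3.73, 4.42 and 4.30 TPM in saliva immune skin and 3.38, 5.74 and 2.83 TPM at first exposure. SNORD70 was listed at 0 in both 3 bites libraries and had 0 and 0.402 TPM in 2 bites skin, against the CK1 bitten values of 0.590 TPM and more given above. SNORD70 reached 1 TPM in CK1 libraries alone, so it too entered the test through the experiment in which it was higher. Neither gene overlapped between the bitten groups of the 2 experiments. The log2 differences were -1.26 for SNORD87 (SE 0.347, limma adjusted p = 0.0297) and -1.11 for SNORD70 (SE 0.282, limma adjusted p = 0.0215), and they passed in 8 and 12 of 17 alternatives.

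The third gene lower without overlap was SNORD83B, named after its values were seen, with a log2 difference of -1.10 and no call. The number of calls in this comparison rested on single libraries. It was 1 without 3 bites replicate 2, 2 without 2 bites replicate 1 or 2, and 3 without first exposure replicate 2 or 3. All 5 genes averaged under 3 TPM over the libraries.

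**Figure D4:**
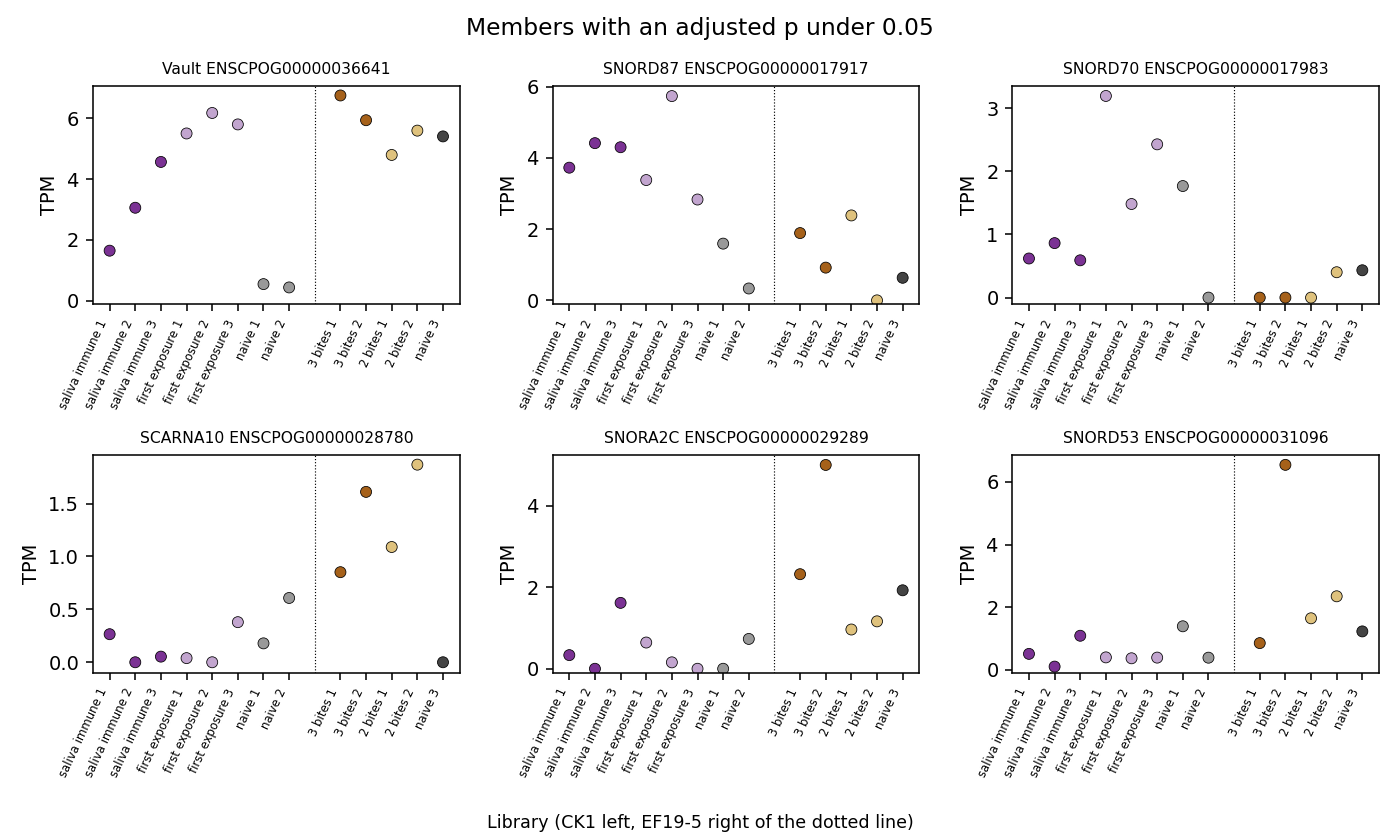
TPM per library (vertical axes, each panel with its own scale) of the 6 members with a limma adjusted p under 0.05, CK1 left and EF19-5 right of the dotted line. Vault ENSCPOG00000036641 has 5.50 to 6.17 TPM at first exposure and 0.551 and 0.442 TPM in CK1 naive skin, but 5.40 TPM in the unbitten EF19-5 library; SCARNA10 is highest in the 4 bitten EF19-5 libraries.

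In unbitten skin, EF19-5 replicate 3 against CK1 replicates 1 and 2 gave 0 calls by limma, against 0% of all genes. Here 104 members were above 0 and 44 below, with a median of 0.47 against 0.21 over all genes, and 14, 9.27%, had an unadjusted p under 0.05, against 15.1% of all genes. Above 0 lay 68.9% of the members and 66.3% of all genes, so that count was near the share over all genes. Naive replicate 3 lay above both CK1 libraries in 86 members, 57.0%, against 53.8% of all genes, and below both in 23, against 24.5%. Without naive replicate 2 the median was 0.19. The bite difference of EF19-5 minus that of CK1 was above 0 for 37 members and below 0 for 114, with a median of -0.40. Over all genes the median was -0.12, and 35.2% were above 0, against 24.5% of the members. The test of whether the bite difference itself differed between the experiments also gave 0 calls by limma, against 0% of all genes, with 15 members, 9.93%, at an unadjusted p under 0.05, against 2.81%.

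The 14 Vault genes did not all move the same way. ENSCPOG00000036641, described above, and ENSCPOG00000035930 had the highest means, 4.32 and 4.21 TPM, and the other 12 averaged between 0.201 and 1.36 TPM. The 2 leading genes differed in pattern: ENSCPOG00000035930 had 3.26, 8.72 and 6.08 TPM in saliva immune skin, 5.45, 2.94 and 3.35 TPM at first exposure, and 6.48 and 5.84 TPM in CK1 naive skin. In EF19-5 it had 3.05 and 6.85 TPM in 3 bites skin and 2.17 and 0.567 TPM in 2 bites skin, and was listed at 0 in naive replicate 3. It was thus as high in unbitten as in bitten CK1 skin, where ENSCPOG00000036641 was lowest in unbitten skin.

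Between the unbitten libraries of EF19-5 and CK1 the pair also went opposite ways, with a log2 difference of 2.10 for ENSCPOG00000036641 (SE 0.370, limma adjusted p = 0.198) and -2.84 for ENSCPOG00000035930 (SE 0.583, limma adjusted p = 0.210). The third by mean, ENSCPOG00000019879, had 5.17 and 2.41 TPM in 3 bites skin, 1.62 and 0.669 TPM in 2 bites skin and was listed at 0 in naive replicate 3. Its CK1 values were 2.50 TPM or less. Summed over the 14 genes, Vault ran between 10.2 TPM in naive replicate 2 and 29.6 TPM in 3 bites replicate 2. In EF19-5 the sum was 20.5 and 29.6 TPM in 3 bites skin and 19.3 and 14.4 TPM in 2 bites skin. Each lay above the 13.6 TPM of naive replicate 3. In CK1 it was 11.6, 17.0 and 28.4 TPM in saliva immune skin and 16.1, 22.3 and 15.0 TPM at first exposure. Both groups overlapped naive replicates 1 and 2, at 15.2 and 10.2 TPM.

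Among the 8 Cajal body RNAs, means lay between 0.510 and 1.42 TPM and 1 gene, SCARNA12, was above 0 in every library. SCARNA21 (ENSCPOG00000029726) had 2.75 and 3.10 TPM in 3 bites skin, 0.603 and 0.795 TPM in 2 bites skin, and was listed at 0 in naive replicate 3. SCARNA13 (ENSCPOG00000028418), which in human guides modification of spliceosomal RNAs, had 2.41 and 3.03 TPM in 3 bites skin and was listed at 0 in both 2 bites libraries, with 1.35 TPM in naive replicate 3. It was also listed at 0 in both CK1 naive libraries, against 0.776 TPM or more in each bitten CK1 library. None of these differences passed the adjusted threshold.

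Host genes were compared with the snoRNAs listed for them from human, since intron positions in guinea pig were not used here. The list may leave out members that a host carries. A host in human was listed for 72 members, 38 hosts in all, of which 20 had a gene of that name in the table, with 39 members. In 20 of 20 the summed snoRNAs ranged more widely over the 13 libraries than the host gene. For the 17 whose snoRNAs were above 0 in every library, the highest library was 3.93-fold to 79.7-fold the lowest, with a median of 7.79-fold, while over the 20 host genes it was 1.22-fold to 5.14-fold, with a median of 1.65-fold. The snoRNA sums had medians of 0.572 to 52.6 TPM over the libraries, against 57.1 to 4424 TPM for the 20 host genes. Fold ranges at such unlike levels are not a like comparison, and the part of level was not tested.

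RPL7A, a ribosomal protein gene that hosts SNORD24 and SNORD36, ran between 355 and 533 TPM, while the 4 members of those names summed to between 17.4 and 136 TPM. RACK1, a ribosome-associated scaffold protein gene that hosts SNORD95 and SNORD96, ran between 1621 and 2348 TPM, against 16.4 to 79.2 TPM for its 2 members summed. RPL13A, a human host of SNORD33 and SNORD34, ran between 2028 and 4920 TPM, against 18.7 to 95.6 TPM for the 3 members of those names summed. The summed snoRNAs were highest in saliva immune replicate 3 or 3 bites replicate 2 for 16 of the 20 hosts, and the host gene itself for 5.

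SNORD5 and its human host TAF1D, a subunit of a polymerase I initiation factor, were closer to each other in most libraries. TAF1D had 57.8, 43.0 and 70.7 TPM in saliva immune skin, 22.0, 54.5 and 53.2 TPM at first exposure, and 48.6 and 37.0 TPM in CK1 naive skin. In EF19-5 it had 99.3 and 113 TPM in 3 bites skin, 57.1 and 64.0 TPM in 2 bites skin, and 82.9 TPM in naive replicate 3. SNORD5 shared with TAF1D the 2 highest libraries, those of 3 bites skin, but in 2 bites skin, where SNORD5 had its 2 lowest values, TAF1D was higher than in all 3 first exposure libraries.

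**Figure D5:**
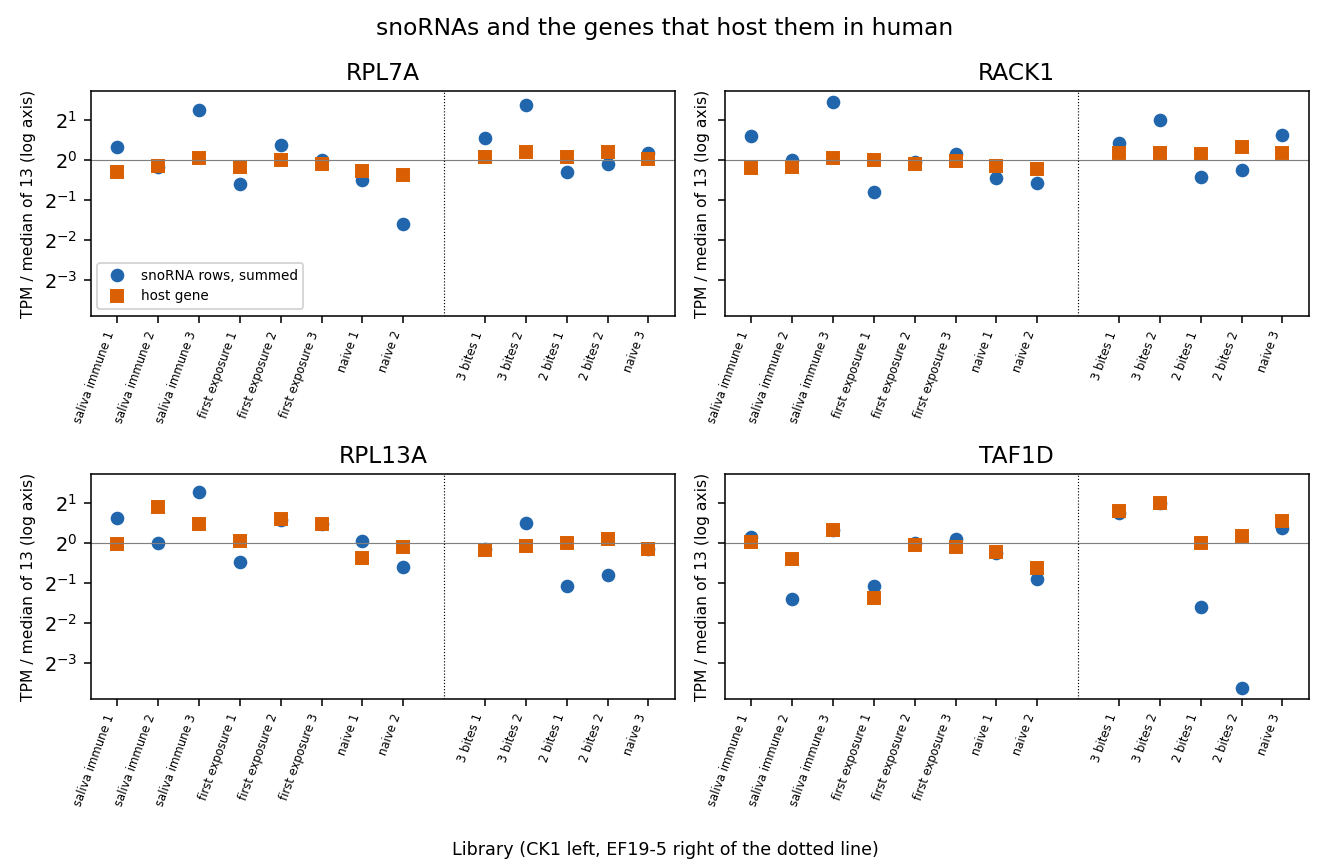
Summed snoRNA members (circles) and the gene that hosts them in human (squares) in each library, each as TPM over its own median of the 13 libraries on a log axis, CK1 left and EF19-5 right of the dotted line. RPL7A stays between 355 and 533 TPM while its 4 snoRNA members sum to 17.4 to 136 TPM, and SNORD5 lies near TAF1D except in 2 bites skin and saliva immune replicate 2.

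The proteins that bind these RNAs were compared in the same fits. Of the snoRNA-protein complex list, which holds core proteins and assembly factors, 23 of 24 genes were tested. Of these 6 were called, all higher, in EF19-5 bitten against CK1 bitten skin, 26.1%, where 21.2% of all genes were called. They were FBL, the methyltransferase of box C/D complexes, with a log2 difference of 0.50 (SE 0.0929), DKC1, the pseudouridine synthase of H/ACA complexes, with 0.66 (SE 0.109), and the core proteins NOP58 with 0.59 and NOP10 with 0.30, together with NOLC1 (0.61) and LARP7 (0.41). The 23 genes' median was 0.22 against 0.08 over all genes.

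FBL had 112 and 124 TPM in 3 bites skin and 151 and 160 TPM in 2 bites skin, against 102, 93.2 and 97.3 TPM in saliva immune skin and 85.3, 90.6 and 104 TPM at first exposure. Its level was thus higher in 2 bites than in 3 bites skin, where the summed SNORD members had the reverse order. In each of the other 8 comparisons limma called 0 of the 23, where 0% to 0.0334% of all genes were called, and between 0 and 5 of them had an unadjusted p under 0.05. Between saliva immune and CK1 naive skin, 18 of the 23 differences were below 0 with a median of -0.13, against 0.14 over all genes. Above 0 were 21.7% of the 23 and 68.1% of all genes.

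Of the vault proteins and vault RNA partners 7 of 9 listed genes were tested. The vault proteins themselves gave no call: MVP, the major vault protein, ran between 13.9 and 44.4 TPM, PARP4 between 8.41 and 41.2 TPM, and TEP1 between 2.30 and 5.62 TPM over the 13 libraries. In EF19-5 bitten against CK1 bitten skin 4 of the 7 were called, all higher, 57.1%, where 21.2% of all genes were called. They were SSB (0.70), which binds new polymerase III transcripts, RO60 (0.57), NSUN2 (0.48), a cytosine methyltransferase that modifies vault RNA, and the RNA phosphatase DUSP11 (0.69). In the other 8 comparisons limma called 0 of the 7, where 0% to 0.0334% of all genes were called, and between 0 and 2 of the 7 had an unadjusted p under 0.05.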

How the data were processed

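The deposited values are TPM for 26855 genes, made by the authors, with 13 library columns that each sum to 1e+06. Libraries were made from total RNA of skin, per the labels' protocols. The submitters' processing notes list the tools Trimmomatic, StringTie and DESeq with no role or version. An aligner, a genome build, an annotation and a size selection of the libraries were not given in the sources used here. TPM gives no depth, so the precision from counting is unknown, and short genes are sensitive to fragment length in the TPM scaling. Columns were matched to samples by library title, and the title prefix was taken as the experiment. All 13 columns differed.

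Log2(TPM + 1) was computed here and fitted with limma 3.58.1 in R 4.3.3 over 14979 genes at 1 TPM or more in at least 2 libraries. The fit had 6 means (group within experiment) and 7 residual degrees of freedom, an intensity trend in empirical Bayes, and two-sided tests at an adjusted p under 0.05. It was tested on simulated data. Tables used Python 3.11.15 with pandas 2.3.3 and figures matplotlib 3.10.9; data.table (version 1.17.8) read the values. Alternatives were a pseudocount of 0.1 TPM, no filter on low values, median-of-ratios scaling, 1 experiment alone, no experiment term and each library left out.

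Genes named are the called members, Vault and SCARNA members, the 10 highest by mean, the 2 widest non-overlapping members each way per comparison, those next to the level requirement, and listed partner and host genes, unless said to be chosen later. Of these, the ones that add values are described and the others given by range. The members and lists were chosen with earlier results of these data known. The host list names human genes. No sequences are shown, as none were at hand for these genes.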

Additional observations from a re-analysis of the deposited data

Results flagged for a closer look

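SNORD70B (ENSCPOG00000018118), a box C/D snoRNA, went opposite ways in the bitten skin of the 2 experiments. In CK1 it had 3.37, 3.28 and 2.63 TPM in saliva immune skin and 3.72, 3.21 and 5.23 TPM at first exposure, against 1.72 and 0 TPM in naive replicates 1 and 2, so that every bitten library lay above both naive ones. In EF19-5 it had 1.305 and 4.57 TPM in 3 bites skin and 1.37 and 2.83 TPM in 2 bites skin, against 4.80 TPM in naive replicate 3, so that every bitten library lay below the naive one. The bite difference of EF19-5 minus that of CK1 was -2.27 on the log2(TPM + 1) scale (SE 0.707). In the limma test over all genes it did not pass, with an adjusted p of 0.999 and an unadjusted p of 0.00925. SNORD70B was picked for this pattern after its values were seen, so the pattern and the unadjusted p are descriptions. The EF19-5 side rests on 1 unbitten library. Of all genes, 43.3% lay below that library in both 2 bites libraries and 24.2% in both 3 bites libraries. In CK1, 21.9% of all genes lay above both naive libraries in every first exposure library and 18.5% in every saliva immune library.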

How the results depend on the processing

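No paired analysis was possible because the labels give no replicate numbers that groups share. At first exposure against naive skin the 1 call fell to 0 with no filter on low values, with CK1 alone and with no experiment term, ranged between 0 and 1 when single libraries were left out, and became 2 (adding SNORD26) without saliva immune replicate 3 and 3 bites replicate 2 together, an alternative chosen after seeing the data. In saliva immune against naive skin the 0 calls ranged between 0 and 1 with a library left out and were 1 in the joint omission, SNORD26 each time. Between naive groups they ranged between 0 and 1, the 1 being Vault ENSCPOG00000036641 without saliva immune replicate 3, and were 3 in the joint omission. Bitten EF19-5 against bitten CK1 skin gave between 1 and 7 calls with a library left out, against 5. For these calls the cause was not tested. The other 5 comparisons gave 0 member calls in every alternative run. For differences of called members, and of the widest members in their own comparison, 544 alternative values kept direction and side of the threshold, 42 lost a call, 3 gained one and 0 changed sign with a call. Outside those, calls were gained between bitten groups by Vault ENSCPOG00000019879 and ENSCPOG00000036641 without saliva immune replicate 3 (adjusted p = 0.00943 and 0.0359) and, among others, by SCARNA13 with a pseudocount of 0.1 TPM (adjusted p = 0.0423). Summed TPM moved by less than 1 SD in all 26 cases. Median-of-ratios scaling moved the median of all genes by over 0.1 in 5 comparisons, and the members' median in saliva immune against naive skin was then 0.71. Without naive replicate 3 there was no value for the comparisons that need it. Depth is unknown, so limits from counting cannot be set.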

Other observations

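SNORD86 (ENSCPOG00000018262), a box C/D snoRNA carried by NOP56 in human, was near its floor in most libraries and high in 2 of different groups, and is named here with its values already known. It had 24.8 TPM in first exposure replicate 3 and 24.1 TPM in naive replicate 2, against 0.228 to 0.420 TPM in the other 11 libraries. NOP56 itself, a core protein of box C/D complexes, ran between 48.6 and 80.5 TPM over the 13 libraries, with 57.0 and 60.0 TPM in those 2. SNORD110, the other member that NOP56 carries in human, did not share the pattern: it had 1.19 TPM in first exposure replicate 3 and 0.252 TPM in naive replicate 2, and was highest in saliva immune replicate 3 at 4.00 TPM.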
